A study of Drosophila melanogaster with 12 samples.

Results

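Pol II S5 occupancy in Kc167 cells depleted of AGO2 was compared directly with that in cells depleted of LaminB. Pol II S5 is RNA polymerase II phosphorylated at Serine 5 of the heptad repeats of its C-terminal domain, and Kc167 is a Drosophila melanogaster line of embryonic hemocyte character. The comparison used the peak lists of 4 immunoprecipitated libraries, chosen by their labels, out of 6 immunoprecipitated libraries and 12 samples in all. AGO2 KD cells (2 replicates) received 100 pmol of siRNA against AGO2, LaminB KD cells (2 replicates) received 2 µg of dsRNA against LaminB, and mock cells (2 replicates) were nucleofected with no RNA. All were wild-type Kc167 cells with no other genetic change named in the labels, collected 3 days after transfection, and each immunoprecipitate had its own input. Mock libraries are given for orientation. Because AGO2 was targeted with siRNA and LaminB with dsRNA, the kind of RNA and the protein removed cannot be told apart in this comparison. The labels call the libraries replicates and do not say whether they came from separate cultures, so the spread between them may be technical.

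AGO2 is the Argonaute protein that carries small interfering RNAs in flies, and it has also been found on chromatin at active promoters. LaminB, encoded by Lam, is a structural protein of the nuclear lamina, the mesh under the nuclear envelope that contacts silent chromatin. Serine 5 phosphorylation is laid down by the TFIIH kinase as the polymerase leaves the promoter, and the mark is highest near gene starts, where Drosophila Pol II often pauses under the control of NELF before CDK9 releases it.

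The 4 peak lists were nested by size and not by knockdown. The lists held 5532 and 6631 peaks in AGO2 KD replicates 1 and 2, and 8541 and 5108 peaks in LaminB KD replicates 1 and 2. LaminB KD replicate 1 was the largest and LaminB KD replicate 2 the smallest list, and both AGO2 KD lists lay between them. Of the AGO2 KD peaks, 99.9% in replicate 1 and 99.4% in replicate 2 coincided with a LaminB KD replicate 1 peak by 1 bp or more, whereas 82.2% and 68.2% did so with LaminB KD replicate 2. In the other direction, all 5108 peaks of LaminB KD replicate 2 overlapped LaminB KD replicate 1, and 99.1% of them overlapped AGO2 KD replicate 2. The covered length was 5.57 and 8.01 Mb in AGO2 KD, against 14.6 and 4.19 Mb in LaminB KD and 8.27 and 10.5 Mb in mock. The highest −log10 q-value of a list followed the same order, at 25.2 and 31.5 in AGO2 KD, against 146 and 8.65 in LaminB KD. Read depth is unknown from these lists, and its part in the order was not tested. Because whole cultures were assayed, fewer cells with polymerase on a gene and less polymerase per cell cannot be told apart. Of 11 plasmatocyte hemocyte markers 7 and 7 carried a peak in AGO2 KD, against 7 and 5 in LaminB KD, and srp, the GATA factor of the lineage, was covered in every library, whereas NimC1, eater, He and Sr-CI had no peak in any of the 4. Crystal cell markers were under a peak in no AGO2 KD library, and in LaminB KD only lz, at 0.395% of its length in replicate 1.

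The group means did not differ beyond the replicate spread. AGO2 KD libraries had 6081.5 ± 777 peaks and LaminB KD libraries 6824.5 ± 2427 (SD, n = 2 each), a difference of -743. AGO2 KD libraries covered 6.79 ± 1.72 Mb and LaminB KD libraries 9.40 ± 7.37 Mb, a difference of -2.62 Mb. Covered length differed 1.44-fold between the AGO2 KD replicates and 3.48-fold between the LaminB KD replicates. Each of these differences had an exact two-sided permutation p of 1, where the smallest p that 2 libraries against 2 allow is 0.333. Without LaminB KD replicate 1 both differences turned round, to 973.5 peaks and 2.59 Mb, and without LaminB KD replicate 2 they were -2459.5 peaks and -7.82 Mb.

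Around gene starts the 4 libraries kept the same order at every distance shown. Of the 5145 protein-coding genes of 2 kb or more with a peak in any of the 4 libraries, the annotated start lay under a peak in 61.0% and 66.2% in AGO2 KD, against 80.1% and 47.4% in LaminB KD. At 1000 bp downstream the shares were 17.2% and 28.3% in AGO2 KD, against 49.5% and 12.6% in LaminB KD. At the middle of the gene they were 9.41% and 17.2% in AGO2 KD, against 38.7% and 7.02% in LaminB KD, and at the end 6.43% and 9.78% in AGO2 KD, against 23.8% and 4.63% in LaminB KD. The AGO2 KD replicates thus lay inside the range of the LaminB KD replicates at the start, in the body and at the end of genes.

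**Figure D1:**
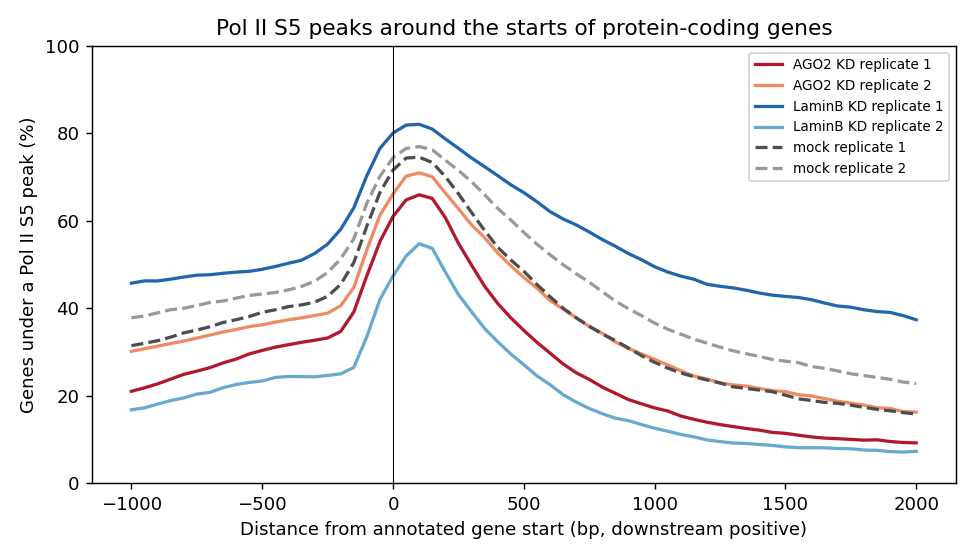
Share of 5145 protein-coding genes whose position at a given distance from the annotated start (bp, x axis) lay under a Pol II S5 peak (%, y axis), 1 line per library. Both AGO2 KD lines run between the LaminB KD lines, which reach 82.1% in replicate 1 and 54.8% in replicate 2 at 100 bp.

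Gene body coverage, the mean share under peaks beyond the first 500 bp of a gene, was 11.0% and 18.8% in AGO2 KD, against 39.3% and 8.22% in LaminB KD. The means were 14.9 ± 5.52% in AGO2 KD and 23.7 ± 21.9% in LaminB KD (SD, n = 2 each), a difference of -8.79 points with an exact permutation p of 1. The share of peaks within 1500 bp of a gene start was 90.2% and 83.6% in AGO2 KD, against 72.1% and 91.7% in LaminB KD, with 95% Wilson intervals over peaks of 89.4 to 91.0%, 82.7 to 84.4%, 71.1 to 73.0% and 90.9 to 92.4%, which cover counting error only. The means differed by 5.01 points with an exact permutation p of 1. The peak over the start reached a median of 466 and 671 bp downstream in AGO2 KD, against 1307.5 and 366.5 bp in LaminB KD, over the 2354 genes with such a peak in all 4 libraries, a difference of -268.5 bp with an exact permutation p of 1. Without LaminB KD replicate 1 the 3 differences were 6.72 points, -4.82 points and 202 bp, each of the opposite sign. Without LaminB KD replicate 2 they were -24.3 points, 14.8 points and -787 bp, where the reach was taken over the genes with a start peak in each of the remaining libraries.

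Gene by gene, the most frequent order of the covered share put both AGO2 KD libraries between the LaminB KD libraries. The covered share is the percentage of a gene's length under peaks. Among the 5145 genes, 2581 (50.2%) followed the order LaminB KD replicate 1, AGO2 KD replicate 2, AGO2 KD replicate 1, LaminB KD replicate 2, and 1093 had ties. Of the 7436 protein-coding genes of 2 kb or more, 10 (0.134%) had a higher covered share in both AGO2 KD than in both LaminB KD libraries and 141 (1.9%) a lower one. The same count for the other ways of pairing the 4 libraries was 595 genes higher in both replicates 1 and 0 in both replicates 2, and 3729 genes higher in AGO2 KD replicate 2 with LaminB KD replicate 1 and 0 in the opposite pair. The knockdown pairing therefore separated fewer genes, 151 in sum, than either pairing across knockdowns. Without LaminB KD replicate 1 the counts by knockdown were 3227 higher and 141 lower, without LaminB KD replicate 2 they were 10 higher and 4911 lower, and without AGO2 KD replicate 1 or 2 they were 89 or 15 higher and 203 or 894 lower. Peaks of both AGO2 KD and neither LaminB KD library held 6882 bp, and peaks of both LaminB KD and neither AGO2 KD library 43298 bp, against 2254801 bp for AGO2 KD replicate 2 with LaminB KD replicate 1.

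**Figure D2:**
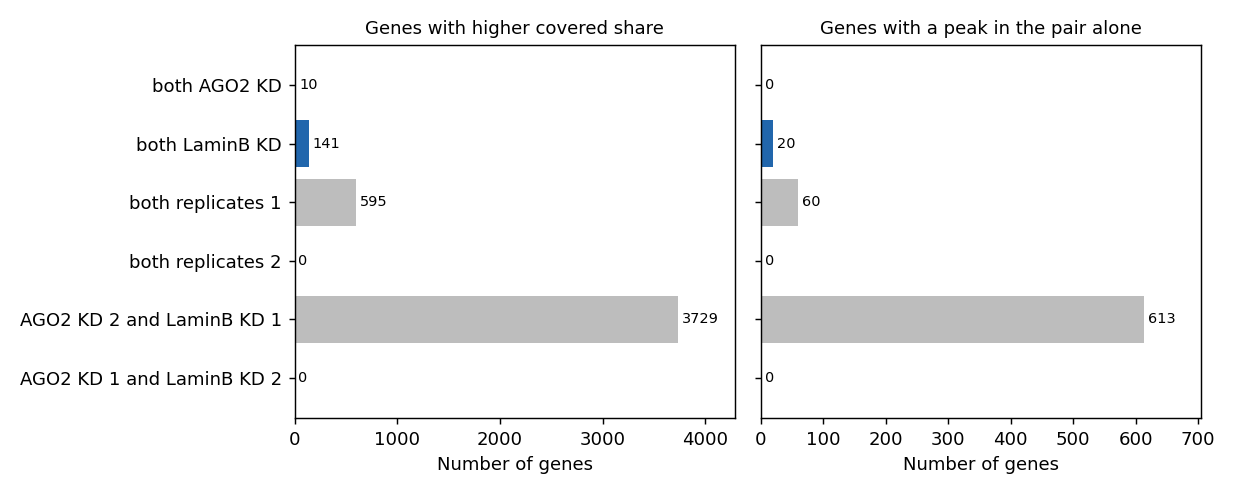
Number of genes (x axis) set apart by each pair of libraries (y axis) from the other pair, as genes with a higher covered share in both libraries of the pair (left) and as genes with a peak in the pair alone (right). Bars of the AGO2 KD pair read 10 and 0 and those of the LaminB KD pair 141 and 20, against 3729 and 613 for AGO2 KD replicate 2 with LaminB KD replicate 1.

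Most of the separated genes were apart by little. The gap, the distance between the nearest libraries of the 2 knockdowns, was 10 points or more in 3 of the 10 genes higher and 7 of the 141 genes lower in AGO2 KD, and under 1 point in 3 and 89 of them. The median gap was 2.15 and 0.613 points. By position, 5 of the 10 genes higher in AGO2 KD were on chromosome X, which held 17.7% of all genes compared. Of the 141 lower genes 34 were on 2L, 34 on 2R, 27 on 3L, 25 on 3R and 21 on X. In the same order these were 24.1%, 24.1%, 19.1%, 17.7% and 14.9% of them. The shares of all genes compared were 17.8%, 20.0%, 19.3%, 24.2% and 17.7%.

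The genes with a higher covered share in AGO2 KD were led by Polr3I, named as a subunit of RNA polymerase III (FBgn0030801, chromosome X, 16884581 to 16886612, plus strand). Polr3I was covered over 100% of its length in both AGO2 KD libraries, against 71.4% and 56.7% in LaminB KD replicates 1 and 2 and 100% in both mock libraries. Counting from the start, its AGO2 KD peaks began at -842 and -1469 bp. The LaminB KD peaks that touched the gene began at 582 and 879 bp, so that the start itself was under no LaminB KD peak. The stretch under both AGO2 KD peaks and no LaminB KD peak ran from 16884439 to 16885162. A LaminB KD peak ended directly before that stretch, upstream of the gene start. PIG-B, an enzyme of glycosylphosphatidylinositol anchor synthesis (FBgn0035464, chromosome 3L, 3811263 to 3813958, plus strand), was covered over 100% in both AGO2 KD libraries, against 81.6% and 11.7% in LaminB KD and 100% in both mock libraries. Here the LaminB KD peaks that touched the gene ended 2199 and 316 bp after the start, short of the gene end. The stretch under both AGO2 KD peaks and no LaminB KD peak ran from 3813462 to 3814100. A LaminB KD peak began directly after that stretch, just past the gene end. CG2909 (FBgn0030189, chromosome X, 10326464 to 10328946, plus strand) was covered over 75.6% and 100% in AGO2 KD, against 63.6% and 19.5% in LaminB KD and 53.7% and 75.9% in mock. Its far end overlaps Gip on the other strand, and ChIP signal there cannot be assigned to either gene. The stretch there under both AGO2 KD peaks and no LaminB KD peak ran from 10328492 to 10328965. A LaminB KD peak began directly after it, just past the end of CG2909.

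The other genes on this side had gaps under 5 points. msl-3, a subunit of the dosage compensation complex of male flies (FBgn0002775, chromosome 3L, 7123213 to 7125533, minus strand), was covered over 68.4% and 69.4% in AGO2 KD, against 64.2% and 20.9% in LaminB KD and 69.8% and 67.6% in mock. The AGO2 KD values of msl-3 were at the mock level, and LaminB KD replicate 1 lay 4.18 points below them. CG7702 (FBgn0038638, chromosome 3R, 18669390 to 18674679, plus strand) was covered over 8.70% and 15.0% in AGO2 KD, against 6.88% and 0% in LaminB KD. CG14196 (FBgn0031002, chromosome X, 19236059 to 19241840, minus strand) was covered over 4.44% and 6.71% in AGO2 KD, against 2.70% and 0% in LaminB KD, and both AGO2 KD values lay above the mock values of 2.16% and 2.99%. CG40470, CG1529 and SLO2, a potassium channel gene, had gaps of 0.426, 0.0303 and 0.0179 points.

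The gene on this side with a peak in both AGO2 KD libraries that LaminB KD lacked was upd3, which encodes a secreted ligand of the JAK/STAT pathway (FBgn0053542, chromosome X, 18277233 to 18284596, plus strand). upd3 was covered over 9.40% and 9.97% in AGO2 KD, against 6.91% and 0.937% in LaminB KD and 4.20% and 9.70% in mock. A peak over its start was present in all 6 libraries, with a fold over background of 6.98 and 6.75 in AGO2 KD, against 6.15 and 4.07 in LaminB KD and 3.40 and 6.09 in mock. Both AGO2 KD libraries had another peak in the first intron, from 1041 to 1342 and from 1024 to 1329 bp after the start, and neither LaminB KD library had a peak there. Mock replicate 2 had a peak of 182 bp at the same place, so the intron peak was not particular to AGO2 KD. A further peak lay upstream, outside annotated genes, from -1475 to -1250 bp and from -1610 to -1253 bp of the start in AGO2 KD replicates 1 and 2, and no LaminB KD or mock library had a peak there. The −log10 q-values of the upstream peaks were 2.50 and 2.65 and those of the intron peaks 1.85 and 5.63, against 13.3 and 21.6 for the start peaks. When the lists were trimmed to equal covered length, the difference in covered share at upd3 turned round, to -0.129 points, and at msl-3 to -10.4 points.

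The stretches at upd3 under both AGO2 KD peaks and no LaminB KD peak are printed because they are the sites of a gene of known pathway where the knockdowns differed. They are the reference sequence of the plus strand of RefSeq Release 6, which is dm6, at chrX:18275758-18275980 and chrX:18278274-18278562. Capitals mark bases outside every mock peak, which are all 223 bases of the upstream stretch and 107 of the 289 of the intron stretch.
upd3 upstream: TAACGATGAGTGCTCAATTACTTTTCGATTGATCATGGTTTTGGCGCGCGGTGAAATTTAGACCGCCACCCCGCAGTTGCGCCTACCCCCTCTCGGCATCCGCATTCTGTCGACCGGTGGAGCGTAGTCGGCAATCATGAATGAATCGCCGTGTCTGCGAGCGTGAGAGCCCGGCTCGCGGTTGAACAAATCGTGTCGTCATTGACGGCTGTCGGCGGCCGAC
upd3 intron: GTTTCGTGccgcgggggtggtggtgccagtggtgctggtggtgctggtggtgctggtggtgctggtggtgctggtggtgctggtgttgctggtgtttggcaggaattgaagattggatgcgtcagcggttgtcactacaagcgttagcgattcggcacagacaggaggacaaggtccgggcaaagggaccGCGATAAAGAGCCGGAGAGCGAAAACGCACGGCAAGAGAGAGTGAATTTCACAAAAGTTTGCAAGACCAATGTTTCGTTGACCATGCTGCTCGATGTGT

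Whole peaks of AGO2 KD with no LaminB KD peak over them were few. AGO2 KD replicate 1 had 6 such peaks of 5532 and replicate 2 had 41 of 6631, and 5 of the 6 overlapped a peak of replicate 2. These 5 were the upstream and the intron peak of upd3, a peak in drongo, a peak at Syx17 and an intergenic peak of chromosome 2R whose nearest protein-coding gene was jing. The drongo peak, chosen after its values were seen, was the widest, at 626 and 793 bp in AGO2 KD replicates 1 and 2. drongo encodes an Arf GTPase-activating protein (FBgn0020304, chromosome 2L, 833584 to 851071, minus strand). This peak began 8292 and 8215 bp downstream of the start, over an exon and an intron, with a fold of 3.51 and 2.69, and no LaminB KD or mock library had a peak there. Within 1 kb of its start drongo carried a peak in all 6 libraries. The Syx17 peak of 255 bp lay wholly under peaks of both mock libraries. Whole peaks held by AGO2 KD and by neither LaminB KD nor mock were therefore found in both AGO2 KD replicates at 3 places, drongo, upd3 upstream and the 2R site near jing. Parts of wider peaks are not in this count. The longest such part under both AGO2 KD peaks and no LaminB KD or mock peak was 485 bp, in Mmp1 on 2R.

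**Figure D3:**
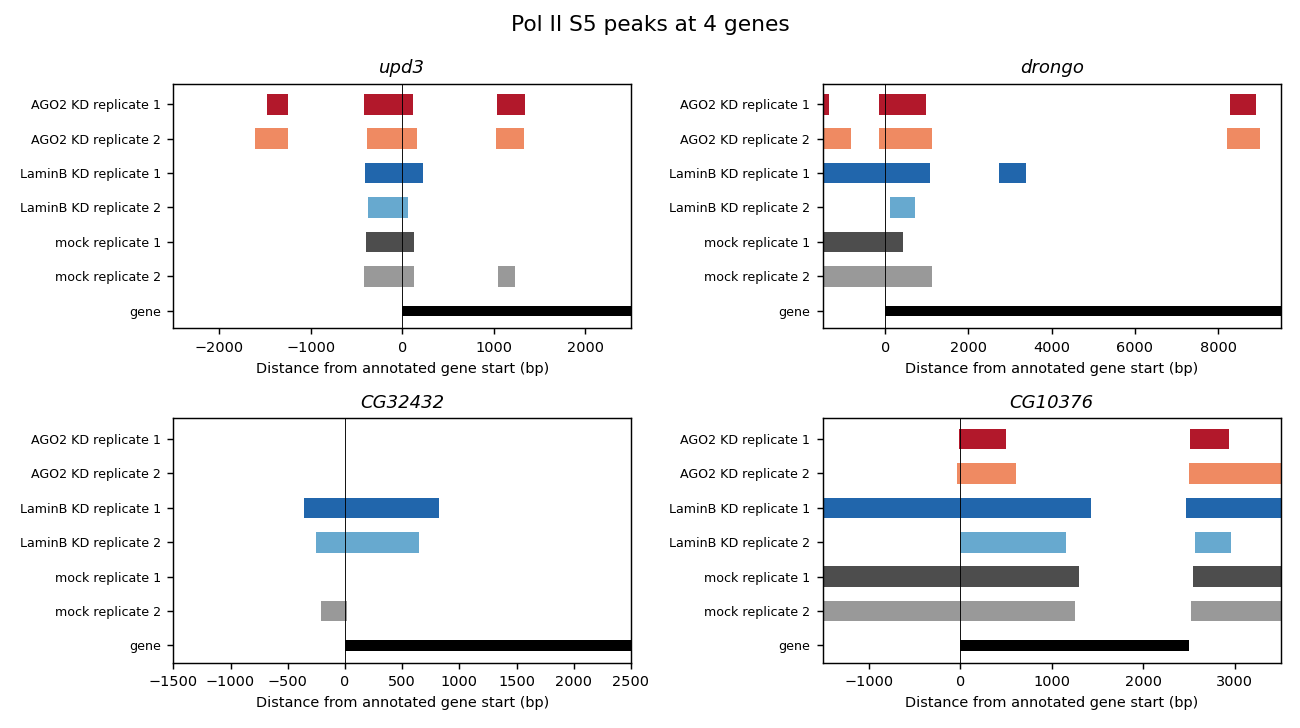
Peaks of each library (rows, AGO2 KD at the top) by distance from the annotated start (bp, x axis, downstream to the right) at upd3, drongo, CG32432 and CG10376, with the gene as a black bar. The AGO2 KD rows alone hold a peak upstream of upd3 and 8215 to 9007 bp inside drongo, and they hold none at the start of CG32432.

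The genes with a lower covered share in AGO2 KD were led by Nepl4, a gene of the neprilysin-like metallopeptidase family (FBgn0031805, chromosome 2L, 6367882 to 6370190, plus strand). Nepl4 was covered over 59.4% and 70.1% in AGO2 KD, against 100% in both LaminB KD and both mock libraries. In AGO2 KD the region was called as separate peaks with an uncovered stretch between them, whereas each LaminB KD library had 1 peak of 4356 or 4009 bp. CG10376 (FBgn0032702, chromosome 2L, 18700606 to 18703105, minus strand) was covered over 19.9% and 24.6% in AGO2 KD, against 58.2% and 46.3% in LaminB KD and 51.8% and 50.2% in mock. Its AGO2 KD start peaks were 512 and 649 bp wide, and those of LaminB KD 4135 and 1165 bp. Ate1, the arginyl-tRNA-protein transferase (FBgn0025720, chromosome 2R, 20254966 to 20257390, minus strand), was covered over 26.4% and 28.1% in AGO2 KD, against 92.5% and 49.4% in LaminB KD and 52.1% and 54.1% in mock.

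mal, Pop1 and Rat1 also had both AGO2 KD libraries below both mock libraries. mal, which encodes the molybdenum cofactor sulfurase (FBgn0002641, chromosome X, 20429675 to 20433210, plus strand), was covered over 11.3% in both AGO2 KD libraries, against 71.7% and 25.8% in LaminB KD and 25.1% and 26.6% in mock. Pop1, a subunit of RNase P and RNase MRP (FBgn0026702, chromosome X, 5622648 to 5625493, plus strand), was covered over 12.6% and 9.77% in AGO2 KD, against 88.3% and 24.3% in LaminB KD and 25.5% and 25.8% in mock. Rat1, the nuclear exoribonuclease that acts in Pol II termination (FBgn0031868, chromosome 2L, 6908083 to 6911423, plus strand), was covered over 27.8% and 30.9% in AGO2 KD, against 81.1% and 40.9% in LaminB KD and 51.9% and 60.6% in mock. At Pop1 the peak over the start ended 358 and 278 bp downstream in AGO2 KD and 2513 and 692 bp downstream in LaminB KD.

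Adck1, a kinase-like gene of mitochondria (FBgn0035039, chromosome 2R, 24611703 to 24613906, plus strand), was covered over 10.3% and 10.0% in AGO2 KD, against 68.3% and 22.0% in LaminB KD and 10.3% and 21.8% in mock. CngB, a cyclic nucleotide-gated channel subunit (FBgn0266346, chromosome 2R, 21692691 to 21697152, minus strand), was under no AGO2 KD peak and was covered over 28.1% and 9.48% in LaminB KD, against 0% and 9.82% in mock. Its covered end overlaps CG42496 and Ppcdc on the other strand. mats, a Hippo pathway cofactor (FBgn0038965, chromosome 3R, 22421161 to 22423302, plus strand), was covered over 9.52% and 10.6% in AGO2 KD, against 76.0% and 18.4% in LaminB KD and 18.0% and 63.1% in mock. Vps8, a subunit of an endosomal tethering complex (FBgn0035704, chromosome 3L, 6491230 to 6495297, minus strand), was covered over 4.57% and 5.65% in AGO2 KD, against 36.4% and 13.0% in LaminB KD and 23.2% and 34.4% in mock. In 8 of these 10 lower genes both mock libraries also lay above both AGO2 KD libraries. In the others, Adck1 and CngB, mock replicate 1 was at the AGO2 KD level. These genes were picked for low AGO2 KD shares. Over the 5145 genes with a peak, the median covered share was 7.21% and 12.5% in AGO2 KD, against 12.5% and 18.8% in mock. When the lists were trimmed to equal covered length, the knockdowns overlapped at all 10 of these lower genes, each of which then had 0% in LaminB KD replicate 1, and the difference turned round at Ate1, Rat1 and mats, to 2.52, 8.87 and 0.840 points.

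**Figure D4:**
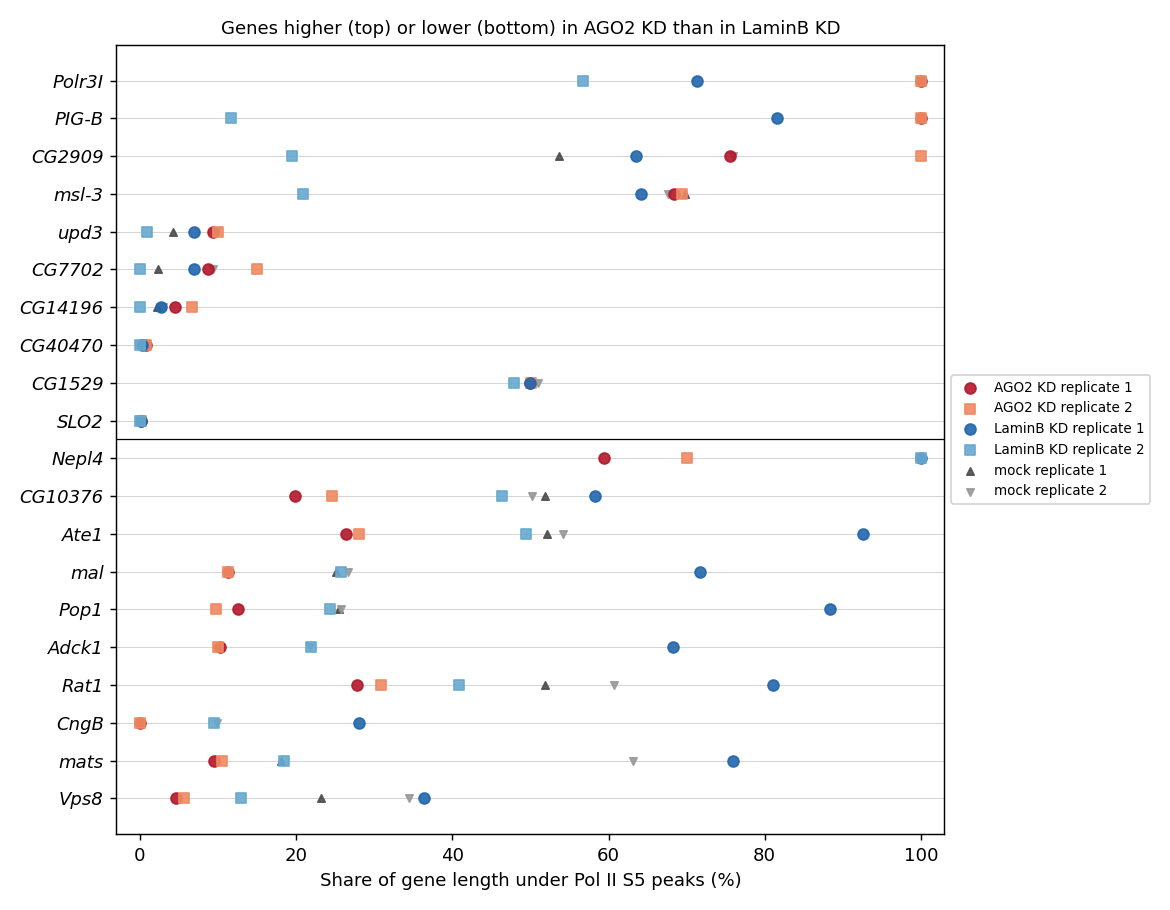
Covered share of the 10 genes with the widest gaps in each direction (%, x axis), with genes higher in AGO2 KD above the line and genes lower in AGO2 KD below it, and 1 point per library. At Nepl4 the AGO2 KD points stand at 59.4% and 70.1% and the LaminB KD points at 100%.

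Presence of a peak was compared next, over all annotated genes. Of 8794 genes with a peak in any of the 4 libraries, 0 (0%) had a peak in both AGO2 KD and neither LaminB KD library, and 20 (0.227%) had a peak in both LaminB KD and neither AGO2 KD library. The other pairings gave 60 genes for both replicates 1 and 0 for both replicates 2, and 613 for AGO2 KD replicate 2 with LaminB KD replicate 1 and 0 for the opposite pair. Without LaminB KD replicate 1 the AGO2 KD count was 887 and the LaminB KD count 20, without LaminB KD replicate 2 they were 0 and 1318, and without AGO2 KD replicate 1 or 2 they were 10 or 1 and 29 or 146.

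The 20 LaminB KD genes, 14 of them protein-coding, rested on 16 peaks of LaminB KD replicate 2, since some share a peak. Between 21 and 646 bp of each lay under peaks in the library with the smaller length. Of the 20, 10 also had a peak in both mock libraries, 9 in 1 of them and 1 in neither, and 9 were on chromosome 2R (45%, against 21.2% of all genes with a peak). CG32432 (FBgn0052432, chromosome 3L, 20844332 to 20885188, minus strand) held the longest stretch, 824 and 646 bp in LaminB KD replicates 1 and 2, against 0 and 17 bp in mock. dac, a nuclear factor of eye and leg development (FBgn0005677, chromosome 2L, 16466512 to 16485998, minus strand), held 348 and 266 bp in LaminB KD, against 0 and 180 bp in mock. MsR1, a myosuppressin receptor (FBgn0035331, chromosome 3L, 2322693 to 2345799, plus strand), held 171 and 183 bp in LaminB KD, against 173 and 167 bp in mock. Thus MsR1 had peaks of similar length in LaminB KD and mock and none in AGO2 KD.

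At the other genes described among the 10 with the longest stretches, the length under peaks was larger in LaminB KD replicate 1 than in replicate 2. cN-IIIB, a cytosolic nucleotidase, held 1224 and 528 bp in LaminB KD, against 520 and 1256 bp in mock. CngB held 1254 and 423 bp and CG18788 1309 and 232 bp in LaminB KD. CG11131 held 801 and 168 bp, lncRNA:CR46110, which lies within kay, 454 and 226 bp, and Atf6, a factor of the endoplasmic reticulum stress response, 2574 and 165 bp. The peaks of LaminB KD replicate 2 at these genes were low in the list at most places, with a −log10 q-value of 1.75 at CG32432, which 18.7% of its peaks did not exceed, 1.07 at dac (0.489%) and 1.53 at MsR1 (12.1%). At CngB it was 5.21, and 95.4% of the list did not exceed it. That CngB peak, 3100 bp wide, also overlapped an AGO2 KD peak outside the gene. The stretch of it that reached into CngB and lay under no AGO2 KD peak was 514 bp long.

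Promoters of 4 of these genes are printed because the LaminB KD peaks lay over the annotated start and no AGO2 KD peak did. Each runs from 250 bases before the start to 30 after it, on the strand of the gene, in RefSeq Release 6, at chr3L:20885159-20885438 for CG32432, chr2L:16485969-16486248 for dac, chr3L:2322443-2322722 for MsR1 and chrX:14321976-14322255 for dpr8, an immunoglobulin domain gene added to the named genes after its values were seen. Capitals mark any match on either strand to the TATA box (TATAAA), the DNA replication-related element (TATCGATA), the GAGA repeat (GAGAG) or the initiator (TCAGT), which do not overlap one another here.
CG32432: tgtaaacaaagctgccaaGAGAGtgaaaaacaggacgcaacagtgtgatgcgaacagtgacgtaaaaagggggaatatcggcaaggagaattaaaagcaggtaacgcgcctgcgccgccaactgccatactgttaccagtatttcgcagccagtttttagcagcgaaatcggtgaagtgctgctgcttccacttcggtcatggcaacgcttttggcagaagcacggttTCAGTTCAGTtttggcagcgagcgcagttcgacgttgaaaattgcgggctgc
dac: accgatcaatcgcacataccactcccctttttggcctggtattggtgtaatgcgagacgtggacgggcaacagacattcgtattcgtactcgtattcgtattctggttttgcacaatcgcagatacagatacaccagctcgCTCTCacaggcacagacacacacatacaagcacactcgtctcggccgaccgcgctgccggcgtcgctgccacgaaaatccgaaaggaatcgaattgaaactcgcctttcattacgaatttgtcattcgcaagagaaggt
MsR1: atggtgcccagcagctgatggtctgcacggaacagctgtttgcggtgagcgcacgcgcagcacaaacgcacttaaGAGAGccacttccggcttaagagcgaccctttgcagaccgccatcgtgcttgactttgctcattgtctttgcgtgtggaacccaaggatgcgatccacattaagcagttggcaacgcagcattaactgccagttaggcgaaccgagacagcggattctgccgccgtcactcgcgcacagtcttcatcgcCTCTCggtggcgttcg
dpr8: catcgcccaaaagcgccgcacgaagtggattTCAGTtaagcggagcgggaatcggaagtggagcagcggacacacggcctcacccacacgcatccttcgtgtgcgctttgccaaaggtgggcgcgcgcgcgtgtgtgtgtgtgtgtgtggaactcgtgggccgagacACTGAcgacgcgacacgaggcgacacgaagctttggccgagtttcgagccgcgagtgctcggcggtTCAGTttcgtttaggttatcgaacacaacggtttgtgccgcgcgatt
No TATA box or DNA replication-related element was among the matches. From 250 bases before to 50 after the start, the GAGA repeat was found in 2 of the 10 promoters of genes higher in AGO2 KD and in 34.0% of the 141 of genes lower in AGO2 KD, against 34.8% of the 7436 genes compared and 29.7% of all 13968 protein-coding genes. For the initiator the figures were 5 of 10 and 54.6%, against 51.4% and 51.5%. The TATA box was found in 5 of 10 and 41.1%, against 40.5% and 45.8%, and the DNA replication-related element in 3 of 10 and 9.22%, against 10.7% and 9.36%.

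**Figure D5:**
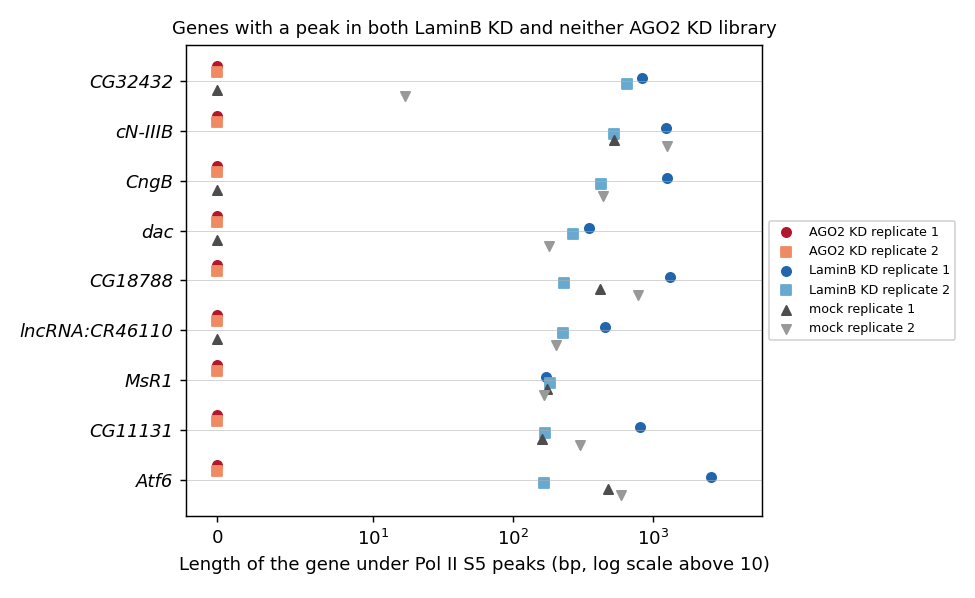
Length under peaks (bp, x axis, logarithmic above 10) of 9 of the 10 genes with the longest stretches among the 20 with a peak in both LaminB KD and neither AGO2 KD library, 1 point per library. All AGO2 KD points are at 0, and LaminB KD points range from 165 to 2574 bp.

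LaminB KD replicate 2, the smallest list, gives the reverse view of the nesting. Only 36 of its 5108 peaks overlapped no AGO2 KD peak, and all 36 overlapped LaminB KD replicate 1. These 36 peaks had a median width of 202 bp, against 496 bp over the whole list. Peaks of both mock libraries overlapped 16 of them, a peak of 1 mock library 14, and no mock peak 6. Over the whole list, 98.9% of peaks overlapped mock replicate 1 and 99.7% mock replicate 2. In LaminB KD replicate 1, 3097 of 8541 peaks overlapped no AGO2 KD peak, and 24 of these were shared with LaminB KD replicate 2.

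Peak strength at promoters was compared as well as peak width. The highest fold over background of a peak within 500 bp of the start was taken for the 5261 protein-coding genes with such a peak in all 4 libraries, and tested with limma after quantile normalization. No gene (0%) passed an adjusted p of 0.05, and the smallest adjusted p was 0.998 (limma, Benjamini-Hochberg over all genes tested). At an unadjusted p below 0.05 there were 162 of the 5261 genes, 97 higher and 65 lower in AGO2 KD. That share was smaller than the 0.05 to be reached without any difference between the knockdowns. The median absolute log2 difference was 0.14 and the median standard error 0.20. CG13124 had the smallest p among genes higher in AGO2 KD, with a deposited fold of 8.47 and 8.08 in AGO2 KD, against 5.04 and 3.83 in LaminB KD, a log2 difference of 0.78 ± 0.18 (SE). CG9436, CG4860, CG6985 and Pa1, a partner of a histone methyltransferase complex, followed with log2 differences of 0.84, 0.94, 0.68 and 0.69. rdo had the smallest p among genes lower in AGO2 KD, with a fold of 2.68 and 2.88 in AGO2 KD, against 5.38 and 3.84 in LaminB KD, a log2 difference of -0.82 ± 0.19 (SE). pdm3, a POU domain factor, had a fold of 3.60 and 3.04 in AGO2 KD, against 6.04 and 5.52 in LaminB KD, a log2 difference of -0.97 ± 0.23 (SE). CG32647, tws, a regulatory subunit of protein phosphatase 2A, and side-V had log2 differences of -0.81, -0.76 and -0.73. In each of these 10 genes the deposited folds of the knockdowns did not overlap. Picking genes by the smallest p favours such values, so this lack of overlap is no further evidence. None of the 10 differed beyond the error once adjusted.

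The knocked-down genes themselves did not separate the groups. AGO2 (FBgn0087035, chromosome 3L, 15554113 to 15561042, plus strand) was covered over 6.67% and 9.97% in AGO2 KD, against 67.6% and 6.72% in LaminB KD. Lam (FBgn0002525, chromosome 2L, 5542480 to 5546642, plus strand) was covered over 50.8% and 77.5% in AGO2 KD, against 82.5% and 23.5% in LaminB KD. Peak coverage measures neither transcript nor protein, so these values are no check of the depletion.

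Lists of related genes were compared by how many members the knockdowns separated and by the median difference in covered share, AGO2 KD minus LaminB KD, which was -0.658 points over all 7436 genes and -4.61 points over the 5145 with a peak. List members entered whatever their length, also those shorter than 2 kb. None of 13 small RNA pathway genes was separated, with a median difference of -11.5 points. The median share of the small RNA genes was 6.67% and 9.97% in AGO2 KD, against 57.3% and 0% in LaminB KD, so only LaminB KD replicate 1 lay above the AGO2 KD libraries. None of 14 nuclear lamina and envelope genes was separated (median difference -1.49 points), nor any of 28 pausing and elongation factors (-5.43 points). At Spt5, which holds the paused polymerase with NELF, the shares were 14.6% and 49.1% in AGO2 KD, against 84.2% and 10.5% in LaminB KD. At Cdk9, the pause release kinase, they were 16.3% and 60.4% in AGO2 KD, against 100% and 14.2% in LaminB KD.

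Among 12 RNA polymerase II subunits, 18 heat shock genes, 13 insulator proteins and 8 Hox genes, none was separated, with median differences of 1.62, 4.64, 0.567 and 0 points. Of these, 3, 13, 9 and 8 genes were 2 kb or longer. List medians that include shorter genes are not like for like with the medians over genes of 2 kb or more. Of the 18 heat shock genes 17 and 17 had a peak in AGO2 KD, against 18 and 10 in LaminB KD. Of all 18277 annotated genes 6727 and 7406 had a peak in AGO2 KD, against 8783 and 5925 in LaminB KD. The LaminB KD replicates were thus the highest and the lowest in both counts. Hsp26 and Hsp68 were picked with their values known. Hsp26 was covered over 100% in both AGO2 KD libraries, against 100% and 0% in LaminB KD. Hsp68 was covered over 100% in both AGO2 KD libraries, against 100% and 24.9% in LaminB KD. DnaJ-1 differed little, at 100% in both AGO2 KD libraries, against 100% and 90.9% in LaminB KD. Hsp67Bc went the other way by its mean, at 17.4% and 28.5% in AGO2 KD, against 76.1% and 0% in LaminB KD. The Hsp70 copies are near-identical and reads from them may be shared or lost, so their values are uncertain. Of 16 ecdysone response genes 1 was lower in AGO2 KD, against 1.9% of the genes of 2 kb or more. It was Cth, a gene of 1478 bp and so outside those genes, listed under its older name Eip55E, at 59.3% and 64.1% in AGO2 KD, against 84.4% and 66.6% in LaminB KD (list median -1.74 points). Of 14 JAK/STAT genes 1, upd3, was higher, against 0.134% of all genes compared (list median -5.73 points).

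None of 5 example genes, Socs36E, Traf4, cv-2, betaTub60D and vri, was separated by the knockdowns. When the lists were trimmed, Socs36E was higher in AGO2 KD at equal covered length, with 48.8% and 51.1% in AGO2 KD, against 17.2% and 28.2% in LaminB KD, and vri was lower at equal peak number, with 1.40% and 1.59% in AGO2 KD, against 2.66% and 1.63% in LaminB KD. Socs36E, a feedback inhibitor of JAK/STAT signalling, was covered over 70.1% and 72.8% in AGO2 KD, against 74.4% and 28.2% in LaminB KD and 46.4% and 49.1% in mock. Both AGO2 KD libraries and LaminB KD replicate 1 lay above both mock libraries there, and LaminB KD replicate 2 below them. The study chose its examples partly on these samples, so this order is not independent evidence. Short intron stretches of 63 and 50 bp in Socs36E were under both AGO2 KD peaks and no LaminB KD peak. Traf4, cv-2, betaTub60D and vri had AGO2 KD values between the LaminB KD values, or, at vri, 1 value of 1.40% below the lower LaminB KD value of 1.63%.

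Of the 11 plasmatocyte markers 2 were lower in AGO2 KD, against 1.9% of all genes compared, and these were Pxn and Col4a1, both genes of matrix assembly. Pxn was covered over 3.16% and 3.20% in AGO2 KD, against 29.6% and 3.26% in LaminB KD, and Col4a1 over 2.95% and 3.06% in AGO2 KD, against 4.71% and 3.17% in LaminB KD, so in each the nearest libraries were 0.0594 and 0.104 points apart. Among 3 crystal cell, 4 neuron, 4 muscle and 3 germ line markers none was separated. Of genes at the length limit of the comparison, Atg14, at 2000 bp just inside it, was covered over 32.6% and 82.7% in AGO2 KD, against 100% and 0% in LaminB KD, and CG1847, at 1999 bp just outside, over 11.0% and 21.5% in AGO2 KD, against 73.1% and 9.55% in LaminB KD.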

How the data were processed

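Pol II S5 ChIP-seq peak lists of 6 immunoprecipitated libraries were used, 4 of them in the comparison. Per the methods and the processing notes in the labels, the authors (tool versions as in those notes) trimmed reads with cutadapt 1.10, aligned them to dm6 with Bowtie2, removed multimapping reads and duplicates with Picard 2.11.0 and called broad peaks with MACS2 2.1.1.20160309, each replicate against its own input. The deposited columns are a score, a fold (ratio of pileup to local background) and the −log10 p-value and −log10 q-value. Lists were called separately and are not scaled to one another, so a deeper or cleaner library gives more and wider peaks from the same chromatin. Peaks with a q-value over 0.1 are absent. Read depth is not given in the sources used here, and no count test was possible. The study's read count test was not run. Columns left unused because they could belong to other samples numbered 0.

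Genes came from Ensembl BDGP6.54 release 115 (18277 genes without transposable elements), sequences from RefSeq Release 6. A gene was counted as occupied from 1 bp under a peak. Differences of group means were tested with an exact permutation test, two-sided, over 6 labelings. Promoter folds, on the log2 scale of the deposited ratio, were tested with limma 3.58.1 in R 4.3.3 at an adjusted p of 0.05. Other steps used Python 3.11.15, pandas 2.3.3, NumPy 2.4.6 and SciPy 1.17.1. Genes named are the 10 with the widest gap in each direction, the 10 with the longest stretch among genes with a peak in 1 knockdown only, the 5 smallest limma p in each direction, AGO2, Lam, the study's 5 examples and the separated members of the lists. Of the genes this rule names, 1 is not reported here. Members, lists and tests were chosen with earlier results of these data known. Alternatives were leaving out each library, equal peak number, equal covered length, the upper 50% of peaks by score, merging within 500 bp, 200 bp of overlap, protein-coding genes alone, a gap of 10 points, ranks, gene lengths of 1 or 5 kb, other promoter windows and the replicate block.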

Additional observations from a re-analysis of the deposited data

How the results depend on the processing

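Counts depended on how the lists were trimmed. With equal peak number (5108 per library) there were 25 genes higher and 219 lower in AGO2 KD, 15 genes with a peak in AGO2 KD alone and 68 in LaminB KD alone, and 14126 and 83431 bp under peaks of AGO2 KD or LaminB KD alone. With equal covered length these were 583 higher and 209 lower, with 86 in AGO2 KD alone and 55 in LaminB KD alone. With the upper 50% of peaks by score they were 6 higher and 200 lower, 5 and 139 alone, and 4530 and 94595 bp. Of the 10 and 141 genes named higher and lower, 5 and 55 were kept at equal covered length and 9 and 140 at equal peak number; none of the 10 lower genes described was among the 55. Of the 20 genes with a peak in LaminB KD alone, 17 were kept at equal peak number, 4 at equal covered length and 2 with the upper 50%. At 200 bp of overlap 2 genes had a peak in AGO2 KD alone. A gap of 10 points left 3 higher and 7 lower, ranks gave 622 higher and 1086 lower, and genes of 5 kb or more 5 and 71. With the replicate block, pairing libraries of the same number, 15 genes were higher and 201 lower, and the presence counts of 0 and 20 did not move; deviations of same-numbered libraries correlated at -0.60 over genes, and the crossed pairing, chosen after seeing the data, gave 65 higher and 863 lower. No neighbouring peaks were closer than 589 bp, so merging within 500 bp left every count as it was.

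Leaving out 1 library each gave 10 to 3227 genes higher and 141 to 4911 lower, 0 to 887 genes in AGO2 KD alone and 20 to 1318 in LaminB KD alone, -2459.5 to 973.5 peaks, -7.82 to 2.59 Mb, -24.3 to 6.72 points of body coverage, -4.82 to 14.8 points of promoter share, -787 to 202 bp of reach, and 6900 to 1570767 bp and 43334 to 6493015 bp of length in AGO2 KD or LaminB KD alone. limma called 0 genes under each of its 9 alternatives, with 42 to 847 genes at an unadjusted p below 0.05 and smallest adjusted p-values of 0.183 with the replicate block, 0.196 without LaminB KD replicate 1 and 0.656 or more otherwise. On trimming, differences in covered share turned round at some of the 10 genes with the widest gaps in each direction. At equal covered length these were msl-3 (-10.4 points), upd3 (-0.129), SLO2 (-0.0374), Ate1 (2.52), Rat1 (8.87) and mats (0.840). At equal peak number it was CG7702 (-0.614), and with the upper 50% of peaks CG40470 (-0.0863), CG1529 (-23.9) and SLO2 (-0.0765). Among the study's examples, the mean difference also turned round at cv-2 and betaTub60D at equal peak number. At vri it did so at equal covered length and with the upper 50% of peaks. The cause was not tested. Read depth is unknown, and the exact permutation test cannot go below 0.333 with 2 libraries a group.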

Other observations

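Among the 141 genes with a lower covered share in AGO2 KD were the 3 genes dac, eya and so, which encode nuclear factors that act together in fly eye development. They were singled out after their values were seen, so no test was made. dac (FBgn0005677, chromosome 2L, 16466512 to 16485998) was under no AGO2 KD peak and was covered over 1.79% and 1.37% of its length in LaminB KD, against 0% and 0.924% in mock. eya (FBgn0000320, chromosome 2L, 6527447 to 6546976) was covered over 0% and 1.08% in AGO2 KD, against 2.40% and 1.21% in LaminB KD and 1.29% and 1.35% in mock. so (FBgn0003460, chromosome 2R, 7419350 to 7434872) was covered over 0.934% and 0.722% in AGO2 KD, against 1.44% and 1.02% in LaminB KD and 0.683% and 1.33% in mock. The nearest libraries of the knockdowns were 1.37, 0.128 and 0.0837 points apart, and in so mock replicate 1 lay below both AGO2 KD libraries.

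Another of the 141 genes, which made up 1.9% of those compared, was picked after its values were seen. Vang, a transmembrane protein of planar cell polarity (FBgn0015838, chromosome 2R, 9103238 to 9106796), was covered over 14.6% and 31.8% in AGO2 KD, against 59.8% and 33.9% in LaminB KD and 56.5% and 54.6% in mock.

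LaminB KD replicate 2 peaks that no AGO2 KD list held included peaks at vri, Tim17b and Tbh that no mock library held either, with −log10 q-values of 1.32, 1.21 and 1.60.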
